A study of Hordeum vulgare with 12 samples.

Results

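Barley crowns sampled 1 h after the synthetic auxin 1-NAA was added are set here against crowns sampled 30 min after it. The comparison uses the 3 libraries labelled 1 h and the 3 labelled 30 min, which are 6 of the 12 libraries of the study, and libraries were assigned by their labelled time alone. All crowns came from Hordeum vulgare cv Golden Promise seedlings that were germinated and grown with 50 µM of the polar auxin transport inhibitor NPA, which holds crown root formation back, and were then moved to a solution with 50 µM 1-NAA. A crown is the 2 mm junction between roots and stem, and each library is 1 pool of 5 crowns. Both times therefore share cultivar, NPA pretreatment, change of solution and auxin, and differ by a further 30 min in the auxin solution. The 3 libraries taken before auxin (0 h) and the 3 taken after 3 h serve as context. Crowns kept without auxin to 30 min or 1 h were not analysed here, so longer auxin exposure and elapsed time cannot be told apart. Labels give no separate experiments for the pools, and p-values measure the spread between pools. Reads from whole crowns also cannot tell fewer cells of a type from less RNA per cell.

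In plants, auxin brings its receptor F-box proteins together with Aux/IAA repressors, which are then broken down, and auxin response factors are freed to switch on their targets. The earliest targets include the Aux/IAA genes themselves, GH3 genes and the SAUR genes. Some GH3 enzymes join auxin to amino acids and so lower free auxin. In rice, crown roots start from cells at the stem base, and the LOB-domain factor CRL1, the AP2 factor CRL5 and the homeobox factor WOX11 are among the genes known to be needed for their initiation or growth.

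No gene passed the main test between 1 h and 30 min. Of the 14 genes that DESeq2, an alternative test, called higher, 1 belonged to the GH3 and 3 to the Aux/IAA family, and of the 8 it called lower, 5 were jasmonate-repressor genes of 1 cluster. Of 63658 annotated genes, 24920 had enough reads to be tested. The main test, the quasi-likelihood test of edgeR adjusted by Benjamini-Hochberg, called 0 genes in either direction, and the lowest adjusted p was 0.495. At an unadjusted p under 0.05, edgeR had 340 genes higher and 396 lower, together 2.95% of those tested. With the replicate number as a block edgeR also called 0 genes, with a lowest adjusted p of 0.0925 and 1513 genes (6.07%) at an unadjusted p under 0.05. DESeq2 called 14 genes higher, 0.0577% of the 24274 genes it gave an adjusted p, and 8 lower, 0.033%. The authors' deposited table for this pair of times called the same 22 genes, 14 higher and 8 lower (0.0564% and 0.0323% of the 24804 genes with an adjusted p there). Its log2 fold changes equalled those of DESeq2 here, for example 1.43886 for HORVU.MOREX.r2.2HG0106420.1 in both. It is therefore not an independent source. DESeq2 with the replicate number as a block called 50 higher (0.219%) and 34 lower (0.149%) of 22855 genes, and 20 of the 22 were among them. Genes below are described as called by DESeq2, since none passed the main test in this comparison.

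Most genes differed little. The median log2 fold change over all tested genes was -0.01, and 90% of the genes lay between -0.59 and 0.47, with a median SE of 0.25. All 22 genes called by DESeq2 had their 3 libraries of 1 h on 1 side of the 3 libraries of 30 min, and all 3 same-numbered pairs moved the same way. Since these genes were called on the same 6 libraries, this describes them and is no separate support. Over all tested genes, 4.37% were higher without overlap and 4.32% lower, and the 3 pairs moved together upward in 14.1% and downward in 14.1%. The smallest p that an exact permutation test of 3 against 3 libraries can give is 0.1. The 14 called higher had log2 fold changes of 0.71 to 2.28, and the 8 called lower had -4.29 to -1.03. Levels differed between the directions: 10 of the 14 averaged at least 10 CPM (a gene's reads scaled to a common library total, with TMM factors) over the 6 libraries, against 0 of the 8.

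**Figure D1:**
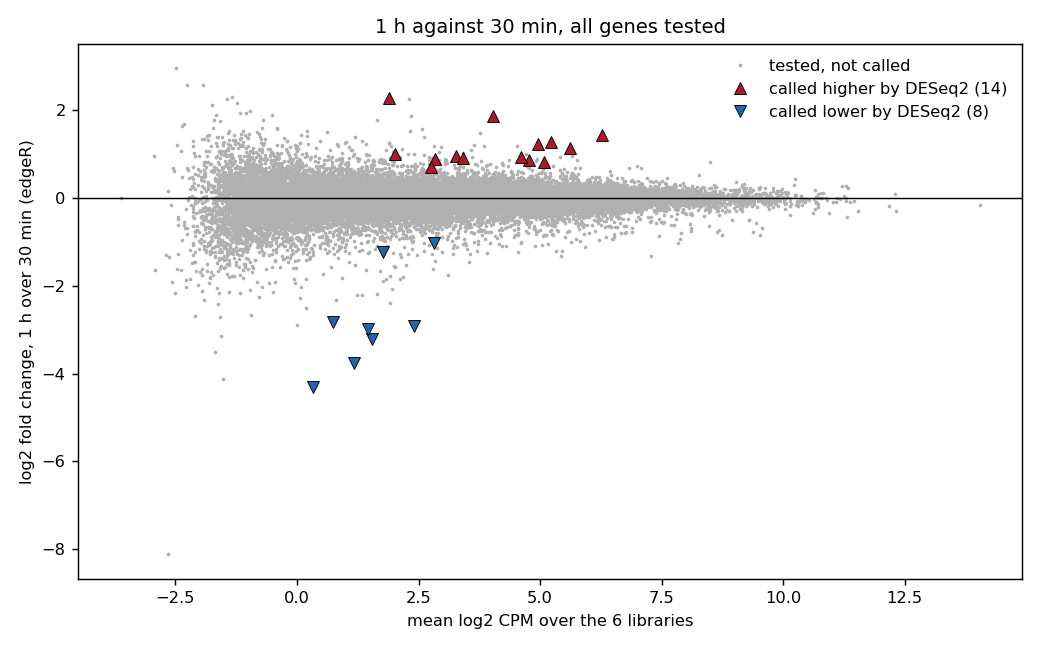
Each point is 1 of 24920 tested genes, with its mean log2 CPM over the 6 libraries on the x axis and its log2 fold change of 1 h over 30 min from edgeR on the y axis. Red triangles mark the 14 genes called higher by DESeq2, and blue triangles the 8 called lower, which reach -4.29, while most genes lie within -0.59 and 0.47.

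The libraries held 21190922, 27851950 and 27984548 assigned reads at 1 h and 18502420, 23519719 and 25438445 at 30 min, so 3 counts in 1 library correspond to 0.102 to 0.166 CPM. The first 30 min library stood apart from the other 5: 64.8% of its reads were assigned to genes, against 73.2% to 78.4%. In it alone 324 genes were more than 1 log2 unit above the other 5 libraries and 403 below, against at most 62 and 132 in any other library. Assigned shares were also low in the first libraries of 0 h (66.4%) and 3 h (56.0%). Residuals of the first 30 min library correlated with theirs at 0.641 and 0.674, and with those of the first 1 h library at 0.287. Without that library DESeq2 called 8 higher and 7 lower, and 12 of the 22 genes were among them. Leaving out 1 h replicate 1 left 4 higher and 0 lower, and 1 h replicate 2, 14 and 0, while 4 genes, those for GH3.3 on 2H, the IAA26-like protein, the WOX11 homolog on 2H and a bZIP factor, were called whichever of the 6 libraries was left out. Summed levels of marker lists for the tissues that a crown holds or touches overlapped between the times. For 25 shoot meristem genes they were 588 to 620 CPM at 1 h and 530 to 604 CPM at 30 min. For 87 leaf genes they were 5655 to 6879 and 5554.5 to 6648 CPM, and for 13 grain genes 256 to 288 and 253 to 276 CPM. For 25 xylem genes they were 194 to 251 and 138 to 207 CPM, and for 4 phloem genes 29.1 to 35.4 and 30.1 to 35.5 CPM. For 32 endodermis genes they were 468 to 504 and 482 to 536 CPM. Of the 25 xylem genes 5 were higher without overlap and 0 lower, against 4.37% and 4.32% of all genes. In 9 of them all 3 pairs were higher and in 1 all 3 lower, against 14.1% of all genes in each direction. The xylem list median was 0.07, and DESeq2 called 0. For 247 genes of dividing cells the sums were 24841 to 32220 CPM at 1 h and 30561 to 32839 CPM at 30 min. None of these tested markers was at 0 in all 6 libraries, but the filter on low counts had already removed genes with few reads. Of 58 matched grain genes 29 had a read and 13 were tested, and of 197 leaf genes 129 had a read and 87 were tested. Transcripts of the tested members of both lists were thus present. The lists were matched by words in descriptions, and the tissue that the transcripts came from was not tested.

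The GH3 family, whose enzymes join auxin or jasmonate to amino acids, held 1 of the 14 genes called higher. HORVU.MOREX.r2.2HG0106420.1, annotated GH3.3 (chromosome 2H, 121197894 to 121199873), had 161, 86.4 and 139 CPM at 1 h, against 48.5, 42.8 and 51.3 CPM at 30 min. Every 1 h library was above every 30 min library, and the lowest 1 h pool, replicate 2, was still well clear of the highest 30 min pool. The log2 fold change was 1.44 ± 0.22 (SE), with a DESeq2 adjusted p of 3.73e-05 and, in the authors' deposited table, 3.81e-05. This gene was already higher at 30 min than at 0 h, by 2.33 on the log2 scale, the only gene edgeR called over that interval (0.00401% of those tested; adjusted p = 0.0133), with 3 called under the block, and it rose again between 1 h and 3 h by 3.10 (edgeR adjusted p = 0.00012). Its steps per interval were thus 2.33 in the first 30 min and 1.44 in the second, and the difference of -0.89 ± 0.38 did not pass the test (edgeR adjusted p = 1).

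Another gene annotated GH3.3, HORVU.MOREX.r2.3HG0242100.1 (chromosome 3H, 505959452 to 505963259), had 30.5, 19.98 and 22.1 CPM at 1 h, against 15.03, 4.07 and 7.17 CPM at 30 min. The groups did not overlap, and replicate 1, the highest of the 30 min pools, came closest to those of 1 h. Its log2 fold change of 1.48 ± 0.37 missed the threshold in DESeq2 (adjusted p = 0.0832) and was called only with the block (adjusted p = 0.000173). HORVU.MOREX.r2.3HG0244730.1 had 27.5, 36.5 and 47.3 CPM at 1 h and 8.93, 19.7 and 32.6 CPM at 30 min, with overlapping groups in which each pool was above its same-numbered partner. At both times replicate 1 was the lowest and replicate 3 the highest, and DESeq2 called the gene with the block (adjusted p = 0.00119) and not without. HORVU.MOREX.r2.1HG0054200.1 stood at 84.1, 77.4 and 58.6 CPM at 1 h and 25.1, 60.6 and 28.2 CPM at 30 min (log2 fold change 0.95 ± 0.48), and the groups overlapped.

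Across the 9 tested GH3 genes, 6 stood above 0 and 3 below, and their median was 0.32, against -0.01 over all genes. The family median moved to 0.04 without the first 30 min library. DESeq2 called 1 of the 9 higher and, with the block, 3.

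The Aux/IAA repressors had the highest median of the 7 auxin lists, 0.50. Of 21 tested Aux/IAA genes 19 stood above 0, as did 12205 of all 24920 genes (49%). In 17 of the 21 all 3 pairs were higher at 1 h and in 0 all 3 were lower, against 14.1% of all genes in each direction, and 9 were higher without overlap, against 4.37%. DESeq2 called 3 higher and, with the block, 5. The same-numbered pairs had list medians of 0.74, 0.24 and 0.29, and without the first 30 min library, which was the lowest of its group in 14 of the 21 genes, the list median was 0.37.

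HORVU.MOREX.r2.3HG0238900.1, whose listed Arabidopsis homolog is IAA26 (chromosome 3H, 485151943 to 485154139), had 46.4, 41.9 and 46.6 CPM at 1 h, against 24.7, 26.5 and 25.1 CPM at 30 min. Both groups were tight and far apart, and the 0 h libraries, at 23.8, 22.7 and 23.3 CPM, lay just under those of 30 min. The log2 fold change was 0.82 ± 0.12, the smallest adjusted p of the comparison in DESeq2 (5.68e-06). From 0 h to 30 min the same gene had stood higher by 0.13 ± 0.12, and from 1 h to 3 h by 0.07 (edgeR adjusted p = 0.83). The second step exceeded the first by 0.69 ± 0.21, which did not pass (edgeR adjusted p = 1).

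A pair of genes with the Arabidopsis homolog IAA17 were also called higher. HORVU.MOREX.r2.3HG0199050.1 (chromosome 3H, 69118888 to 69121068) had 70.2, 48.5 and 56.5 CPM at 1 h and 21.8, 23.6 and 27.1 CPM at 30 min (log2 fold change 1.27 ± 0.23; DESeq2 adjusted p = 0.00252). HORVU.MOREX.r2.1HG0021490.1 (chromosome 1H, 119178846 to 119180932) had 78.7, 55.7 and 90.0 CPM at 1 h and 26.9, 28.6 and 45.5 CPM at 30 min (1.15 ± 0.26; DESeq2 adjusted p = 0.0473). In both, replicate 2 was the lowest of the 1 h pools and no 30 min pool reached it. Both rose further between 1 h and 3 h, by 1.73 each (edgeR adjusted p = 0.0032 and 0.0056).

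Other Aux/IAA genes were further from the threshold. HORVU.MOREX.r2.5HG0432000.1 had 4.88, 3.51 and 3.86 CPM at 1 h and 1.11, 2.04 and 2.02 CPM at 30 min, without overlap (1.23 ± 0.33; DESeq2 adjusted p = 0.227 without the block and 0.0287, a call, with it). An IAA4-like gene, HORVU.MOREX.r2.6HG0520360.1, was 30.7, 13.7 and 28.4 CPM at 1 h and 14.6, 3.52 and 13.8 CPM at 30 min, after 0.708, 1.41 and 1.41 CPM at 0 h. In it the second pool was the low one at both times, so the groups overlapped although every pair was higher at 1 h. HORVU.MOREX.r2.3HG0196550.1, an IAA18-like gene, had 151, 154 and 133 CPM at 1 h against 66.7, 97.0 and 110 CPM at 30 min (0.67 ± 0.23; called by DESeq2 with the block alone, adjusted p = 0.0383) and fell by 1.04 between 1 h and 3 h (edgeR adjusted p = 0.043). The 2 members at or below 0 were at -0.28 and -0.00.

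The other auxin lists had medians nearer to 0. Among 45 tested SAUR genes 28 stood above 0 and 17 below (median 0.20), among 29 auxin carriers 22 and 7 (median 0.22), and among 29 auxin response factors 20 and 9 (median 0.13). Of 8 auxin receptor genes 4 stood above 0 and 4 below. DESeq2 called 0 members of these 4 lists, and with the block 1 carrier and 1 response factor, both higher. At an unadjusted p under 0.05 edgeR had 2 SAUR genes, 3 carriers and 2 response factors higher and 3 SAUR genes lower. Over all 24920 tested genes it had 340 higher and 396 lower. Of the 29 carriers 12 had all 3 pairs higher and 1 all 3 lower, against 14.1% of all genes in each direction. Auxin synthesis enzymes leaned the other way, with 12 of 34 above 0 and 22 below (median -0.11), and DESeq2 called 0 of them, as did edgeR even at an unadjusted p under 0.05. The carrier list's smallest p belonged to HORVU.MOREX.r2.1HG0046110.1, an auxin canalization protein, at 0.78 ± 0.19 (DESeq2 adjusted p = 0.186, and 0.0493 with the block), which rose by 2.03 between 1 h and 3 h (edgeR adjusted p = 0.00062).

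Among transcription factors of root initiation, the homologs of WOX11 stood out. HORVU.MOREX.r2.2HG0091310.1, a WUSCHEL-related homeobox gene with WOX11 as its first-listed rice homolog (chromosome 2H, 32750309 to 32752599), had 40.3, 21.7 and 34.8 CPM at 1 h, against 7.26, 7.34 and 11.7 CPM at 30 min. The 30 min pools were at the level of the 0 h pools, which had 7.72, 4.19 and 7.75 CPM, and all 1 h pools were above both groups. The log2 fold change was 1.88 ± 0.32 (DESeq2 adjusted p = 0.0001), with 0.43 ± 0.32 for the first 30 min and a rise of 2.97 from 1 h to 3 h (edgeR adjusted p = 0.0011). The second step exceeded the first by 1.45 ± 0.57, which did not pass (edgeR adjusted p = 1).

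The other tested homolog of WOX11, HORVU.MOREX.r2.4HG0315980.1 (chromosome 4H, 416101329 to 416103841), has WOX11 only as its second-listed rice homolog. It had 2.84, 1.35 and 3.42 CPM at 1 h and 0.832, 0.849 and 0.991 CPM at 30 min, without overlap (1.5 ± 0.35). DESeq2 gave an adjusted p of 0.0832 without the block and 0.0213 with it. A further second-listed homolog, HORVU.MOREX.r2.3HG0191290.1, had 10 counts over all 12 libraries and was not tested. The remaining 6 WUSCHEL-related homeobox genes lay between -0.12 and 0.37.

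The LOB-domain family was split: 12 of 22 tested genes stood above 0 and 10 below, with a median of 0.07. At an unadjusted p under 0.05 edgeR had 2 higher and 0 lower, against 340 and 396 of all 24920 genes. DESeq2 called 0 of the family. Its member with CRL1 as first-listed rice homolog, HORVU.MOREX.r2.4HG0339920.1 (chromosome 4H, 595307482 to 595308336), had 48.1, 36.9 and 37.2 CPM at 1 h, against 28.1, 16.9 and 23.5 CPM at 30 min and 18.3, 10.1 and 16.2 CPM at 0 h. Each pool was above its same-numbered predecessor at both steps, and the 1 h and 30 min groups did not overlap. Its log2 fold change of 0.84 ± 0.24 was called by DESeq2 only with the block (adjusted p = 0.446 without and 0.00116 with), and the gene rose by 1.56 between 1 h and 3 h (edgeR adjusted p = 0.0068). A LOB gene with the Arabidopsis homolog LBD18, HORVU.MOREX.r2.4HG0326090.1, had 2.84, 1.83 and 1.86 CPM at 1 h and 0.388, 1.10 and 1.11 CPM at 30 min (1.29 ± 0.45; edgeR adjusted p = 1). The gene with CRL1 as second-listed rice homolog, HORVU.MOREX.r2.4HG0276060.1, was at -0.27 ± 0.54.

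Homologs of other crown root genes differed by less than their errors or close to them. CRL4 encodes a guanine nucleotide exchange factor of vesicle transport that is linked to auxin transport in rice, and its 4 homologs lay between -0.32 and 0.16 with edgeR unadjusted p of 0.354 to 0.637. Only HORVU.MOREX.r2.4HG0278080.1 has CRL4 as its first-listed rice homolog, and the others have it as the second-listed. CRL5 is an AP2 factor that no gene has as its first-listed rice homolog. The 2 genes with it as second-listed homolog, HORVU.MOREX.r2.2HG0127160.1 and HORVU.MOREX.r2.5HG0426580.1, were at 0.57 ± 0.48 and 0.36 ± 0.44.

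The other transcription factors among the 14 belonged to the bZIP family, with 1 gene, and the homeobox-leucine zipper family, with 3. For bZIP, HORVU.MOREX.r2.7HG0557340.1 (chromosome 7H, 120436348 to 120436932) had 9.91, 5.60 and 8.73 CPM at 1 h, against 1.39, 1.95 and 1.60 CPM at 30 min. With a log2 fold change of 2.28 ± 0.41 it had the largest difference of the 14 (DESeq2 adjusted p = 0.0001), all 1 h pools were well above all 30 min pools, and the 0 h pools (0.901, 2.13 and 0.566 CPM) were around those of 30 min. It rose by 1.66 between 1 h and 3 h (edgeR adjusted p = 0.0455).

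A pair of homeobox-leucine zipper genes are neighbours on chromosome 7H. HORVU.MOREX.r2.7HG0537960.1 (23526393 to 23527556) had 55.5, 38.0 and 50.6 CPM at 1 h and 18.2, 17.5 and 25.4 CPM at 30 min (1.24 ± 0.27; DESeq2 adjusted p = 0.0295). HORVU.MOREX.r2.7HG0537950.1 (23510016 to 23511104), with the Arabidopsis homolog HAT1, had 18.9, 11.4 and 13.6 CPM at 1 h and 8.15, 7.17 and 8.12 CPM at 30 min (0.90 ± 0.18; DESeq2 adjusted p = 0.0215). Neither gene had an overlap between the times. The third, HORVU.MOREX.r2.2HG0157290.1 (chromosome 2H, 606023327 to 606024354), had 10.5, 7.58 and 11.3 CPM at 1 h and 5.60, 4.92 and 5.22 CPM at 30 min (0.90 ± 0.18; DESeq2 adjusted p = 0.0215). Again the lowest 1 h pool, replicate 2, was above every 30 min pool. Of 28 tested homeobox-leucine zipper genes 20 stood above 0, against 49% of all genes, with a median of 0.11. Medians of the same-numbered pairs were 0.58, -0.02 and 0.00. DESeq2 called 3 of the 28 higher and, with the block, 5. A MYB gene outside the 14, HORVU.MOREX.r2.4HG0316960.1, had 8.61, 8.89 and 12.4 CPM at 1 h and 2.94, 3.52 and 4.88 CPM at 30 min (1.39 ± 0.39), and DESeq2 called it only with the block (adjusted p = 0.248 without and 0.000317 with).

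**Figure D2:**
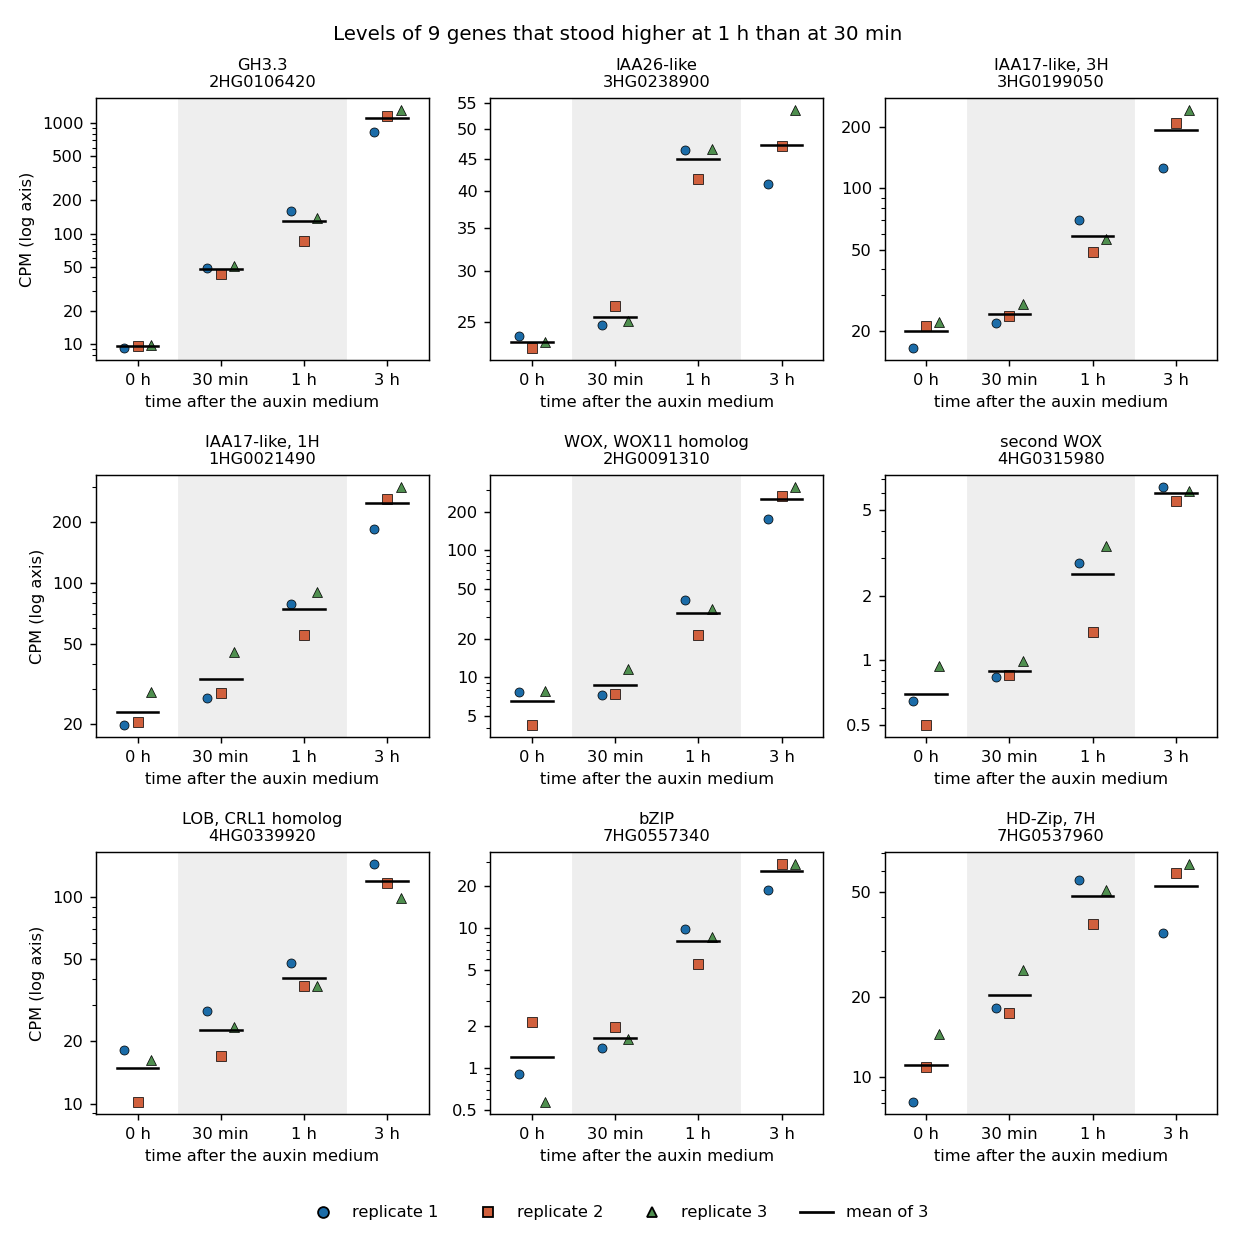
CPM on a log axis in every library at 0 h, 30 min, 1 h and 3 h for 9 genes that stood higher at 1 h than at 30 min, with 1 symbol per replicate number and a bar for the mean of 3. In all 9 panels the 3 symbols at 1 h lie above the 3 at 30 min (shaded pair), by log2 fold changes of 0.82 to 2.28.

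Enzymes that lower other growth hormones were among the genes that stood higher. Gibberellin 2-oxidase, which inactivates gibberellin, is represented by HORVU.MOREX.r2.1HG0019640.1 (chromosome 1H, 96957298 to 96961972), with 16.2, 13.9 and 10.3 CPM at 1 h and 6.49, 7.85 and 6.37 CPM at 30 min. The groups were apart, the log2 fold change was 0.96 ± 0.20 (DESeq2 adjusted p = 0.0301), and the 30 min level was not above that of 0 h (-0.28 ± 0.20). The gene rose by 1.38 between 1 h and 3 h (edgeR adjusted p = 0.0042). Of 13 tested gibberellin oxidases 7 stood above 0 and 6 below. A cytokinin oxidase, an enzyme that breaks cytokinin down, HORVU.MOREX.r2.3HG0265950.1 (chromosome 3H, 601750924 to 601753000), had 33.6, 28.2 and 44.5 CPM at 1 h and 12.2, 14.8 and 19.5 CPM at 30 min. All 3 libraries of 1 h were above all 3 of 30 min, with a log2 fold change of 1.19 ± 0.36, called by DESeq2 with the block (adjusted p = 7.54e-05) and not without (0.385). Among 20 tested genes of cytokinin synthesis and breakdown 15 stood above 0, with a median of 0.12.

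The last 4 of the 14 belonged to no hormone list. An F-box gene, of the family that selects proteins for breakdown, HORVU.MOREX.r2.3HG0246100.1 (chromosome 3H, 527363559 to 527365635), had 35.5, 31.9 and 44.4 CPM at 1 h and 20.8, 23.1 and 17.3 CPM at 30 min (0.87 ± 0.17; DESeq2 adjusted p = 0.0157). A gene with a BTB/POZ domain, a fold through which proteins bind each other, HORVU.MOREX.r2.6HG0489780.1 (chromosome 6H, 334363498 to 334365832), had 39.6, 26.4 and 36.8 CPM at 1 h and 21.2, 13.5 and 19.4 CPM at 30 min (0.93 ± 0.20; DESeq2 adjusted p = 0.0301). Both were higher in every 1 h pool, and the F-box gene rose further by 3 h (1.12; edgeR adjusted p = 0.0056). A cinnamoyl-CoA reductase, an enzyme on the way to lignin, HORVU.MOREX.r2.7HG0547060.1 (chromosome 7H, 56697174 to 56699168), had 6.09, 6.19 and 4.54 CPM at 1 h and 2.83, 2.5 and 3.09 CPM at 30 min (1.00 ± 0.21; DESeq2 adjusted p = 0.0428). It was the 1 gene of the 14 that fell between 1 h and 3 h, by 1.51 (edgeR adjusted p = 0.0041). A glycosyltransferase, HORVU.MOREX.r2.7HG0550420.1 (chromosome 7H, 73543029 to 73544525), had 9.21, 7.94 and 8.40 CPM at 1 h and 6.04, 5.18 and 4.46 CPM at 30 min (0.71 ± 0.16; DESeq2 adjusted p = 0.0487).

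Over the time course, 12 of the 14 had a log2 fold change above 0 at 30 min over 0 h, with a range of -0.28 to 2.33 over all 14. Between 1 h and 3 h the mean rose in 13 of the 14, and edgeR called 8 of them higher. Over all genes edgeR called 297 higher there, 1.19%, and 221 lower, 0.887%, or 819 and 873 with the block. Without the first 30 min library DESeq2 no longer called the IAA17-like gene on 1H, the 3 homeobox-leucine zipper genes, gibberellin 2-oxidase, the F-box gene and cinnamoyl-CoA reductase, whose log2 fold changes were then 0.88 to 1.16, with adjusted p of 0.1 to 0.505. The intervals before and after share the 30 min or the 1 h libraries with the comparison described here. Pools were ordered alike within the set: replicate 2 was the lowest 1 h pool in 12 of the 14 genes and replicate 1 the highest in 9. Whether that order bears on the fold changes was not tested.

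The genes that stood lower were led by jasmonate ZIM-domain (JAZ) genes, which encode repressors of jasmonate response that jasmonate itself induces. Chromosome 7H holds 8 annotated genes between 106562361 and 106760699, of which 7 are JAZ genes, and all 7 were tested. The 7 stood lower at 1 h without overlap, against 4.32% of all tested genes, with log2 fold changes of -4.29 to -1.26, and DESeq2 called 5. In all 7 every 30 min library was above every 1 h and every 0 h library, as it was in 0.863% of all tested genes. Their copies are close together, and how the authors' counting split reads between similar copies is not given in the sources used here, so the division of reads among the 7 is uncertain.

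HORVU.MOREX.r2.7HG0555360.1 had 0.744, 0.622 and 1.66 CPM at 1 h, against 4.66, 7.55 and 11.9 CPM at 30 min and 0.193, 0.305 and 1.13 CPM at 0 h (-2.98 ± 0.60; DESeq2 adjusted p = 0.00268). The lowest 30 min pool, replicate 1, was still above the highest 1 h pool, replicate 3, and the 1 h pools were nearer to those of 0 h. From 0 h to 30 min it stood higher by 3.77 ± 0.63, called by edgeR with the block (adjusted p = 0.0192) and not without (0.276). HORVU.MOREX.r2.7HG0555340.1 had 2.09, 1.02 and 2.91 CPM at 1 h and 9.32, 16.1 and 20.5 CPM at 30 min (-2.93 ± 0.67; DESeq2 adjusted p = 0.0169). HORVU.MOREX.r2.7HG0555400.1 had 0.326, 0.146 and 0.305 CPM at 1 h and 2.61, 5.01 and 7.74 CPM at 30 min (-4.29 ± 0.91; DESeq2 adjusted p = 0.00268). All 30 min pools of both genes were above all 1 h pools.

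In the other called copies the groups were again apart. HORVU.MOREX.r2.7HG0555330.1 had 1.07, 0.476 and 1.42 CPM at 1 h and 4.77, 12.4 and 10.2 CPM at 30 min (-3.20 ± 0.77; DESeq2 adjusted p = 0.0301). HORVU.MOREX.r2.7HG0555380.1 had 0.977, 0.329 and 0.542 CPM at 1 h and 4.99, 8.74 and 10.8 CPM at 30 min (-3.75 ± 0.87; DESeq2 adjusted p = 0.0295). With the block DESeq2 no longer called these 2, with adjusted p of 0.147 and 0.129. The remaining copies were HORVU.MOREX.r2.7HG0555350.1, with 0.512, 0.512 and 1.12 CPM at 1 h and 1.39, 1.4 and 2.4 CPM at 30 min (-1.26 ± 0.53), and HORVU.MOREX.r2.7HG0555370.1, with 0.0930, 0 and 0.0677 CPM at 1 h, under 3 counts in each library, and 0.665, 0.594 and 1.64 CPM at 30 min. With 1 of the 6 libraries left out in turn, DESeq2 called HORVU.MOREX.r2.7HG0555360.1 in 3 of 6 fits, HORVU.MOREX.r2.7HG0555330.1, HORVU.MOREX.r2.7HG0555340.1 and HORVU.MOREX.r2.7HG0555400.1 in 2 each and HORVU.MOREX.r2.7HG0555380.1 in 0. Replicate 1 was the lowest 30 min pool in 6 of the 7 genes and replicate 3 the highest in 6, not all of them the same genes.

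**Figure D3:**
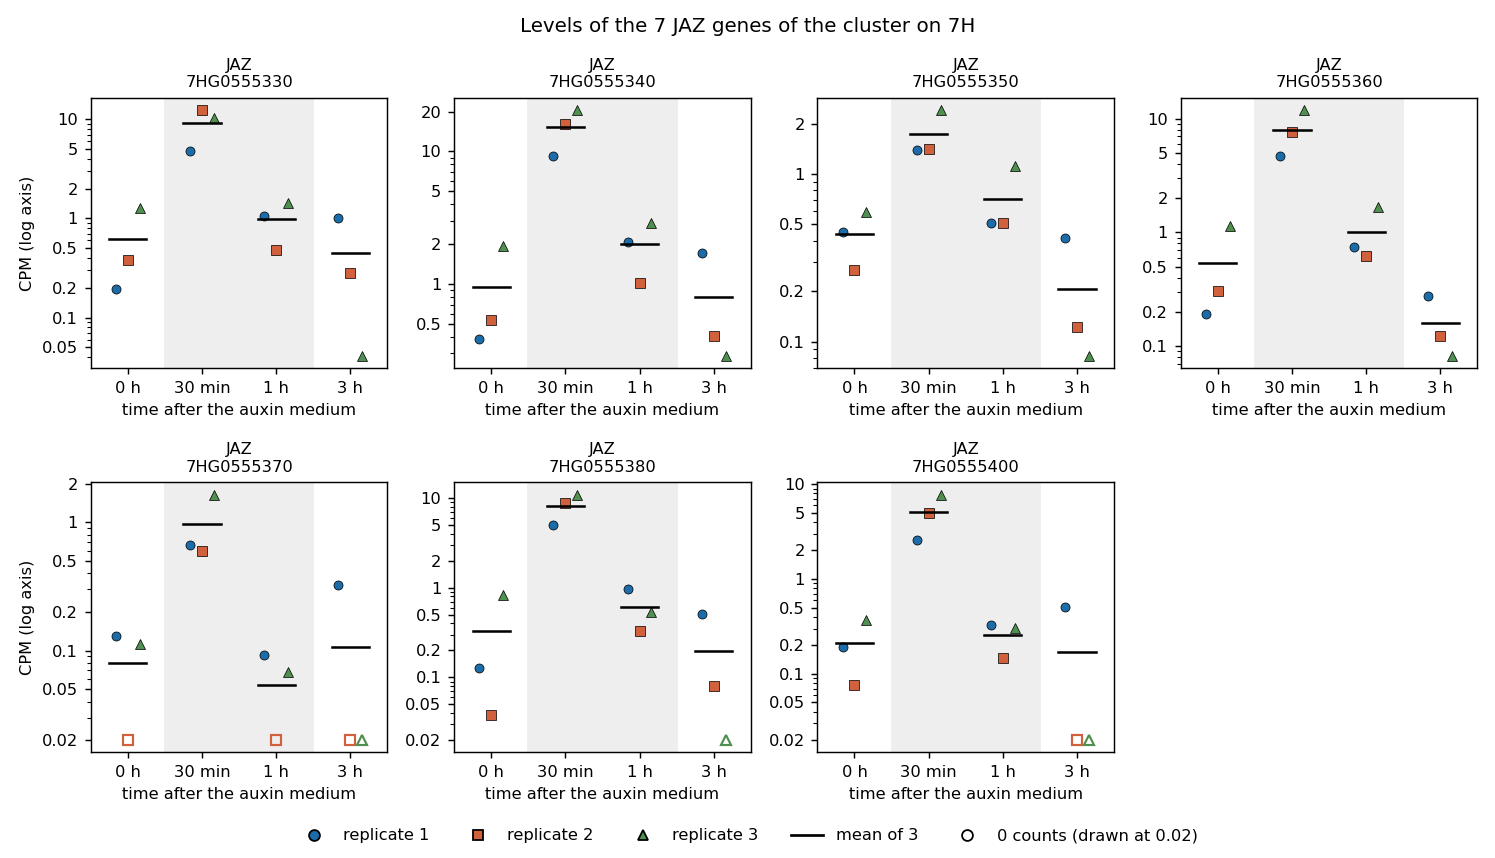
CPM on a log axis in every library at 0 h, 30 min, 1 h and 3 h for the 7 JAZ genes of the 7H cluster, with 1 symbol per replicate number, a bar for the mean of 3 and open symbols at 0.02 for libraries with 0 counts. In each panel the 3 symbols at 30 min lie above all symbols at 1 h and 0 h.

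The JAZ genes elsewhere in the genome lay between -1.67 and 0.46. Of all 15 tested JAZ genes 11 stood below 0 and 4 above, with a median of -1.53. HORVU.MOREX.r2.2HG0103320.1 had 208, 377 and 273 CPM at 1 h and 159, 357 and 192 CPM at 30 min (0.28), and HORVU.MOREX.r2.5HG0398310.1 had 34.1, 81.1 and 58.1 CPM at 1 h and 19.6, 70.4 and 35.5 CPM at 30 min (0.46). In both the groups overlapped and replicate 2 was the highest pool at each time. HORVU.MOREX.r2.2HG0135180.1, a homolog of Arabidopsis JAZ10, had 1.4, 1.65 and 1.42 CPM at 1 h and 1.996, 8.996 and 1.87 CPM at 30 min. At 0 h this gene had 0.322, 0.0381 and 0.538 CPM. Every 30 min pool was above every 1 h and every 0 h pool, as in the JAZ cluster. Replicate 2 was by far the highest, and the log2 fold change of -1.53 ± 0.72 was not called by DESeq2. Enzymes of jasmonate synthesis showed no common direction, with 17 of 32 above 0 and a median of 0.04.

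The other 3 genes called lower were of different kinds. A senescence-associated gene, HORVU.MOREX.r2.4HG0337740.1 (chromosome 4H, 585550804 to 585551392), had 0.744, 0.659 and 0.609 CPM at 1 h and 1.16, 4.75 and 8.31 CPM at 30 min (-2.82 ± 0.67; DESeq2 adjusted p = 0.0487). The 1 h pools were nearly equal while the 30 min pools were widely spread, and all of them were above 1 h. A ubiquitin gene, HORVU.MOREX.r2.5HG0432870.1 (chromosome 5H, 560452290 to 560452755), had 2.37, 2.16 and 1.96 CPM at 1 h and 6.32, 4.67 and 4.38 CPM at 30 min (-1.24 ± 0.28; DESeq2 adjusted p = 0.0487). An annotated CACTA transposon protein, HORVU.MOREX.r2.3HG0216730.1 (chromosome 3H, 255378348 to 255379727), had 5.07, 5.01 and 4.74 CPM at 1 h and 12.7, 8.70 and 8.85 CPM at 30 min (-1.03 ± 0.21; DESeq2 adjusted p = 0.0215). In the ubiquitin and the CACTA gene the first 30 min pool, the library with the fewest assigned reads, was the highest of the 6, and without it their log2 fold changes in DESeq2 were -1.07 (adjusted p = 0.656) and -0.83 (adjusted p = 0.324). A RING finger gene, HORVU.MOREX.r2.1HG0048980.1, had 24.9, 25.03 and 19.4 CPM at 1 h and 68.4, 41.2 and 35.6 CPM at 30 min (-1.07 ± 0.25), short of the threshold in DESeq2 (adjusted p = 0.0685) and called lower with the block (adjusted p = 0.00142), and it fell by a further 1.10 between 1 h and 3 h (edgeR adjusted p = 0.0486).

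Whether the second 30 min differed from the first was tested directly, as the step from 30 min to 1 h minus the step from 0 h to 30 min. edgeR called 0 genes in either direction (760, or 3.05%, at an unadjusted p under 0.05). Blocked on replicate number, edgeR called 1 (0.00401%), with a negative difference: HORVU.MOREX.r2.7HG0555360.1 of the JAZ cluster. DESeq2 called 0 positive and 28 negative differences (0.0979% of 28613 genes). In 27 of the 28 the 1 h mean was above the 0 h mean, and 6 were also called lower at 1 h against 30 min, a contrast that shares the 1 h and 30 min libraries with this one. The 28 hold 5 JAZ genes of the 7H cluster and 2 WRKY genes, which encode factors of stress response. HORVU.MOREX.r2.7HG0616250.1, 1 of these WRKY genes, had 2.19, 1.10 and 3.28 CPM at 1 h and 3.72, 7.47 and 11.2 CPM at 30 min. Its neighbour HORVU.MOREX.r2.7HG0616260.1, with the Arabidopsis homolog WRKY40, is the other, and a gene on 4H for a CYP94C1-like cytochrome P450, an enzyme that oxidises jasmonate in Arabidopsis, HORVU.MOREX.r2.4HG0296400.1, also belongs to the 28. These 3 genes were chosen after their values were seen.

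Lists that mark general growth or stress response showed small differences. Of 166 tested core histone genes, which follow DNA replication, 137 stood below 0 and 29 above, with a median of -0.13, and DESeq2 called 0. At an unadjusted p under 0.05 edgeR had 0 of them. With the block it had 13 lower and 0 higher, against 6.07% of all genes in either direction. Without overlap 18 of the 166 were lower, against 4.32% of all genes. In 45 of the 166 (27.1%, against 14.1% of all genes) all 3 pairs were lower at 1 h, but the pair medians were -0.11, 0.01 and -0.32, and without the third 1 h library the list median was -0.01. Of 152 ribosomal protein genes 110 stood below 0 (median -0.06). Cyclins and CDKs had 54 of 81 above 0 (median 0.07), and 85 WRKY and 123 heat shock genes had medians of -0.05 each. DESeq2 called 0 members of these lists, and with the block 1 heat shock gene lower. At an unadjusted p under 0.05 edgeR had 5 heat shock genes and 4 WRKY genes lower and 3 WRKY genes higher. It had 1 cyclin or CDK higher and 2 lower, and 0 ribosomal protein genes. Over all 24920 tested genes it had 340 higher and 396 lower, together 2.95%.

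**Figure D4:**
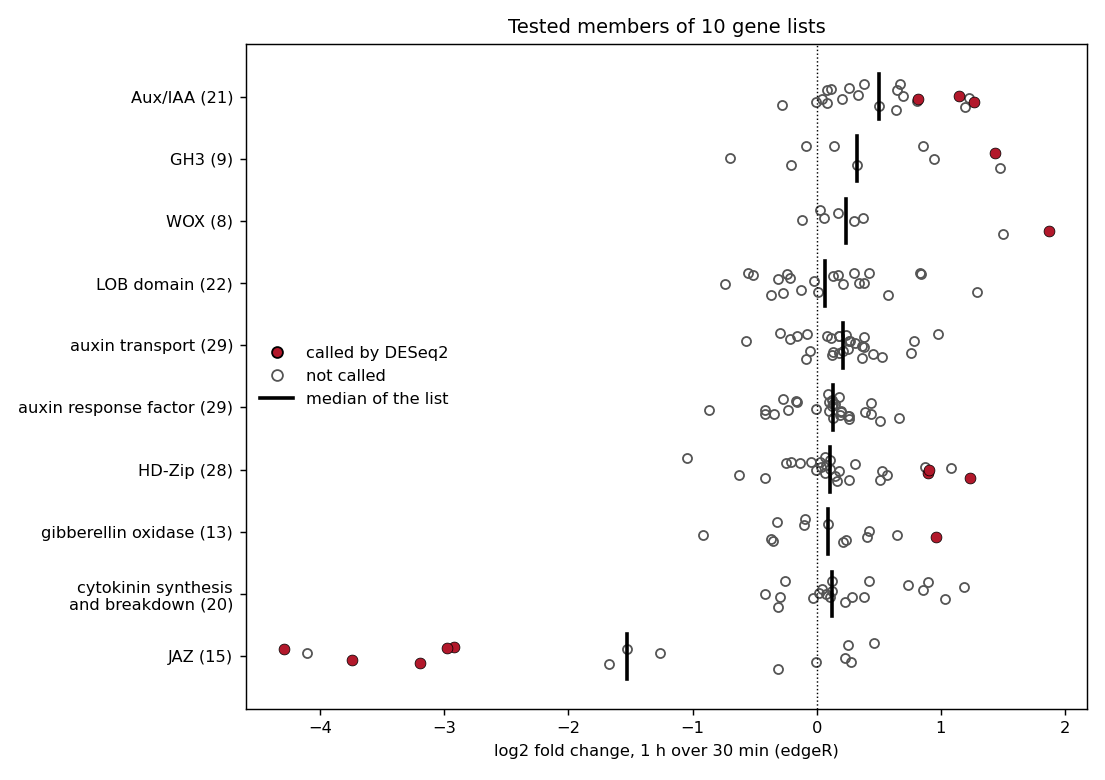
Log2 fold change of 1 h over 30 min from edgeR (x axis) for each tested member of 10 gene lists, with the number tested beside the name, red points for members called by DESeq2 and a bar for the list median. The Aux/IAA median lies at 0.50 and the JAZ median at -1.53, where 7 of the points below 0 belong to the 7H cluster, and the LOB-domain median lies at 0.07.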

How the data were processed

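Poly(A)-selected RNA was made into directional libraries and sequenced as read pairs of 150 bases, per the labels' protocols. Per the submitters' processing notes, Subread 1.5.2, HISAT2 2.0.5, bcl2fastq and SAMtools were used. For the genome build, the strand setting and reads that map more than once, nothing is given in the sources used here. Coordinates stand as deposited. The raw counts per gene deposited by the authors were used, with their row of total reads for the assigned share. The authors deposited log2 fold changes and adjusted p-values for 1 h over 30 min, with the test not named in the sources used here. Their log2 fold changes were equal to those of DESeq2 here for the genes GH3.3 on 2H (1.43886), WOX11 homolog on 2H (1.87872) and HORVU.MOREX.r2.7HG0555360.1 (-2.98681). They are printed as the authors' deposited table.

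From the counts, genes were kept by filterByExpr (10 counts in enough libraries, 15 in total), which left 24920 of 63658, with 26328 genes without any read. TMM factors and 1 model over 12 libraries and 4 times were fitted with edgeR 4.0.16 in R 4.3.3 (8 residual df), and genes were called at a Benjamini-Hochberg adjusted p under 0.05. SEs are the log2 fold change over the root of its F. DESeq2 1.42.0 on the same counts, without and with the replicate number as a block, and fits without each library in turn were alternatives. DESeq2 with the block and its leave-outs were chosen after seeing the data. The labels number the pools 1 to 3 at each time, and residuals of same-numbered 1 h and 30 min pools correlated at 0.251 to 0.586 (3 pairs), against -0.386 to 0.106 for the 6 other pairings, so the numbers were taken to pair the libraries. Over all 12 libraries, which the block uses, the separation was not complete. Replicate 2 of 0 h and of 1 h correlated at 0.0958, while 30 min replicate 2 and 3 h replicate 3 correlated at 0.268. Within-group chi-square statistics found no library deposited more than once. The test was also run on counts simulated without an effect of replicate number. How many changes it misses in these libraries was not measured.

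Genes were named by a rule: the 10 with the smallest p in the blocked fit in each direction among annotated genes of at least 1 CPM whose 3 pairs agree in sign, the member with the smallest p of each of 42 lists matched by words in the descriptions, the members of GH3, Aux/IAA, WUSCHEL-related homeobox, LOB and JAZ lists with an unadjusted p under 0.05 (the rest are given as counts and ranges), and homologs of CRL1, CRL4, CRL5 and WOX11. Genes called by DESeq2 outside it, and 5 further GH3 and JAZ members, were named after their values were seen. The members, lists and rule were chosen with earlier results of these data known, and 11 lists were amended after the descriptions were read. A root hair marker list was dropped because its only matches were ROOT HAIR DEFECTIVE 3 genes. The level of 3 counts covers counting error only, while SEs include the spread between pools.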

Additional observations from a re-analysis of the deposited data

Results flagged for a closer look

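HORVU.MOREX.r2.7HG0555360.1, a JAZ gene of the 7H cluster, was flagged because its step in the second 30 min differed from its step in the first by a direct test of that difference. The second step minus the first was -6.94 ± 0.64 (SE) on the log2 scale in edgeR with the replicate number as a block (adjusted p = 0.00727), and all 3 libraries of 30 min were above all libraries of 1 h and 0 h. Without the block the difference was -6.75 ± 0.96 and was not called (edgeR adjusted p = 0.296). The 30 min libraries enter both steps.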

How the results depend on the processing

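The main test called 0 genes higher and 0 lower at 1 h against 30 min, and DESeq2 called 14 and 8, or 50 and 34 with the replicate number as a block. Left-out libraries were tried in turn. Without 1 h replicates 1, 2 and 3 DESeq2 called 4, 14 and 7 higher and 0, 0 and 13 lower, and without 30 min replicates 1, 2 and 3 it called 8, 7 and 14 higher and 7, 5 and 23 lower. edgeR called 0 in each direction without any 1 library, and with the replicate block 6 higher and 3 lower without 3 h replicate 1 and 1 lower without 3 h replicate 3. The genes called by DESeq2 in all 6 leave-outs of a 1 h or 30 min library were 4, the WOX11 homolog on 2H, GH3.3 on 2H, the IAA26-like gene and the bZIP gene. For the second against the first 30 min, negative differences numbered 0 in the main test, 1 with the replicate block, 4 without the filter on low counts, 28 with DESeq2 and 63 with DESeq2 and the block. DESeq2 had 17, 19 and 28 of them without 1 h replicates 1, 2 and 3, and 26, 11 and 88 without 30 min replicates 1, 2 and 3. edgeR had 0 to 3 with a library left out (3 without 0 h replicate 3), and with the block 0 to 35, with 35 without 0 h replicate 3, 9 without 3 h replicate 3 and 8 without 3 h replicate 1. Positive differences numbered 0, then 19 with DESeq2 and the block and 2 with DESeq2 without 30 min replicate 3. DESeq2 with the block called 84 genes, 20 of them among its 22 without, and for named genes the changed calls stand beside their values. Of 70 named genes 66 kept their direction under every alternative run. The CRL4 homolog HORVU.MOREX.r2.3HG0194920.1 turned to -0.031 without 30 min replicate 2 in edgeR and DESeq2 (up to 0.13 elsewhere), and HORVU.MOREX.r2.3HG0236690.1 to 0.10 without 1 h replicate 1 with the block. The CRL1 homolog HORVU.MOREX.r2.4HG0276060.1 turned to 0.25 (0.26 in DESeq2, 0.18 with the block) without 30 min replicate 1 and to 0.12 without 1 h replicate 3 with the block (down to -0.63 elsewhere). The CRL5 homolog HORVU.MOREX.r2.5HG0426580.1 turned to -3.29e-05 without 1 h replicate 1 with the block. The causes were not tested. Depth limits the genes near 0.102 to 0.166 CPM, the level of 3 counts.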

Other observations

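Some genes outside the naming rule were picked after their values were seen, and are given as values. HORVU.MOREX.r2.3HG0239400.1, a homolog of carotenoid cleavage dioxygenase 8, an enzyme of strigolactone synthesis, had 5.81, 4.39 and 10.2 CPM at 1 h and 0.444, 1.65 and 3.70 CPM at 30 min, and DESeq2 called it with the block (adjusted p = 0.000173). Every 1 h pool was above every 30 min pool.

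Kinase genes next to each other on chromosome 3H, with a mitogen-activated protein kinase kinase kinase as Arabidopsis homolog, had their highest pools at 30 min: HORVU.MOREX.r2.3HG0234550.1 had 18, 19 and 52 counts at 1 h and 59, 136 and 163 counts at 30 min, and HORVU.MOREX.r2.3HG0234560.1 had 6, 22 and 40 counts at 1 h and 41, 141 and 109 counts at 30 min (DESeq2 with the block, adjusted p = 0.0383 for the second gene). The phospholipase A1 gene HORVU.MOREX.r2.6HG0497440.1, of a family that releases fatty acids from membrane lipids, had 31.4, 35.1 and 40.4 CPM at 1 h and 51.1, 90.6 and 71.0 CPM at 30 min (DESeq2 with the block, adjusted p = 0.00874). None of these libraries overlapped between the times.

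Heat stress factor genes were high in 2 of the 3 pools at 30 min. HORVU.MOREX.r2.4HG0334780.1 had 11.96, 10.03 and 5.82 CPM at 1 h and 30.9, 23.6 and 9.27 CPM at 30 min (DESeq2 with the block, adjusted p = 0.0461), and HORVU.MOREX.r2.1HG0068990.1 had 508, 506 and 265 counts at 1 h and 974, 1171 and 404 counts at 30 min. In both the third pool was the lowest at each time, and the groups overlapped.

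Single pools carried the highest values of other genes. A MYB-related gene with the Arabidopsis homolog REVEILLE 5, HORVU.MOREX.r2.1HG0020290.1, had 12, 102 and 45 counts at 1 h and 24, 565 and 51 counts at 30 min. Ribonuclease gene HORVU.MOREX.r2.1HG0077160.1 had 7, 35 and 17 counts at 1 h and 7, 263 and 26 counts at 30 min. The lowest point of the plot of all genes, annotated cytochrome c oxidase subunit 1 (HORVU.MOREX.r2.UnG0631180.1), had 0 counts in all 1 h libraries and 80, 0 and 0 counts at 30 min.

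Beside the ubiquitin gene on 5H, its neighbours HORVU.MOREX.r2.5HG0432850.1 (Argonaute) and HORVU.MOREX.r2.5HG0432860.1 (MutS) also stood lower, with 71, 74 and 118 and with 95, 109 and 139 counts at 1 h, against 106, 172 and 146 and against 227, 204 and 272 counts at 30 min. DESeq2 with the block called the MutS gene lower (adjusted p = 0.0296). Their starts and ends lie within a few kilobases, and the strand setting of the counting is not given in the sources used here.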
